A study of Mus musculus with 7 samples.

Results

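A selection of 57 genes that encode histone- and DNA-modifying enzymes or their partners was examined for DNaseI hypersensitivity at the promoter in cultured mouse podocytes, out of 21853 protein-coding genes annotated in GENCODE vM21. The members are listed by name and enzyme class, with no threshold on a DNase-Seq value, although earlier results of these data were known when they were listed. They do not cover all such genes, and 86 further ones are summarised at the end. A promoter was taken as 500 nt on either side of any protein-coding transcription start site (TSS) of the gene. All 57 had a peak there in each of the 3 deposited peak lists, as did 21835 genes in all, which are the promoters that the members are compared with.

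The cells were conditionally immortalised mouse podocytes, a line of the glomerular epithelium, that had been differentiated and serum-deprived. Normal glucose (NG) was 5 mM, and high glucose was 25 mM, given together with a mimic at 50 nM that was either non-targeting (HG+NT) or miR-93 (HG+miR-93), each for 36 h. The study asked how high glucose changes hypersensitivity and if miR-93 overexpression reverses those changes. There were 2 replicates per condition and 1 genomic DNA input, but the replicates are joined in 1 peak list per condition, so no spread between replicates was available and no test between conditions was run.

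DNaseI cuts DNA that is not wrapped in nucleosomes, and open promoters therefore release more fragments. DNA methyltransferases and TET enzymes write and oxidise methyl groups on cytosine. Acetyltransferases, deacetylases, methyltransferases and demethylases add or remove marks on histone tails, and remodellers move or evict nucleosomes. Most of these genes are expressed in many cell types from CpG-rich promoters, and histone deacetylases, sirtuins and Ezh2 have been studied in podocytes in diabetic kidney disease.

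Promoter sequences from RefSeq on GRCm38.p6 were matched for 48 of the 57 members. *Kmt2b*, *Kdm5a*, *Hdac10*, *Hdac1*, *Kdm4b*, *Kdm2a*, *Kdm6b*, *Hdac3* and *Setd1b* were not matched. The sequences of 7 members are shown because their summits, CpG-rich boxes and pileups recur in the results below. Each is the 250 bases before a RefSeq start, written 5′ to 3′ on the gene's strand, and holds no annotated coding or untranslated base. Capitals mark matches, on either strand, to the SP1 box GGGCGG, the NF-Y box CCAAT, the E2F box TTCCCGC or the AP-1 box TGANTCA. *Smarca4*, the ATPase of the BAF remodelling complex, lies at chr9:21615919-21616168 on the + strand. *Suz12*, a core subunit of polycomb repressive complex 2 (PRC2), lies at chr11:79992856-79993105 on the + strand. *Hdac4*, a class IIa deacetylase, lies at chr1:92180342-92180591 on the − strand. *Setd2*, the enzyme that trimethylates histone H3 lysine 36, lies at chr9:110532347-110532596 on the + strand. *Kmt2c*, an enhancer-associated H3 lysine 4 methyltransferase, lies at chr5:25498784-25499033 on the − strand. *Dnmt3a*, a de novo DNA methyltransferase, lies at chr12:3806730-3806979 on the + strand. *Kdm4a*, a demethylase of H3 lysines 9 and 36, lies at chr4:118180044-118180293 on the − strand.
Smarca4: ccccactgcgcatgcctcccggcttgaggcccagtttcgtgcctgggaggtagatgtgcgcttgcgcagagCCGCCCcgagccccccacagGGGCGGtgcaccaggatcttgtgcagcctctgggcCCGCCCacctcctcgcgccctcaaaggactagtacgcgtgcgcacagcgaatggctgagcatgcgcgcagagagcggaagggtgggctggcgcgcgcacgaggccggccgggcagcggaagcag
Suz12: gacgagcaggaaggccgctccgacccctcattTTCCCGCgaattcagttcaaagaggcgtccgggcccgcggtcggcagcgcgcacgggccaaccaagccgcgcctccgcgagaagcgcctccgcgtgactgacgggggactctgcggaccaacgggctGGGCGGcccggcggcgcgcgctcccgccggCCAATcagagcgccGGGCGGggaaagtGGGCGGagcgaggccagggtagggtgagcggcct
Hdac4: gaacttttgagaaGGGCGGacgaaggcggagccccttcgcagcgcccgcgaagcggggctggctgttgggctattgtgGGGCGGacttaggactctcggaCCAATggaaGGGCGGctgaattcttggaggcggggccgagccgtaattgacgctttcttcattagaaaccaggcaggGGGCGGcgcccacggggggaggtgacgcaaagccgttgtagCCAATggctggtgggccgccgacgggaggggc
Setd2: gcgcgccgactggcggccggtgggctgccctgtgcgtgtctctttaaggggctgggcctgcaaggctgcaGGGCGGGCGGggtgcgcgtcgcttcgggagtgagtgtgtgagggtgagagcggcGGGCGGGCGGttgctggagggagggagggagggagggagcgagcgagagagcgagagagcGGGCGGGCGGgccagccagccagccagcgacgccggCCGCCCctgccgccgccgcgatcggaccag
Kmt2c: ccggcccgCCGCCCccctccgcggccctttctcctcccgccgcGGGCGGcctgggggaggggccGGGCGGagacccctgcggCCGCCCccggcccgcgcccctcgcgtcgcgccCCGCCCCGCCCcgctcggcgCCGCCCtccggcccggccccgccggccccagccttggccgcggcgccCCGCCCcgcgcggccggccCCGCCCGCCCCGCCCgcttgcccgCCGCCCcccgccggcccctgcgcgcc
Dnmt3a: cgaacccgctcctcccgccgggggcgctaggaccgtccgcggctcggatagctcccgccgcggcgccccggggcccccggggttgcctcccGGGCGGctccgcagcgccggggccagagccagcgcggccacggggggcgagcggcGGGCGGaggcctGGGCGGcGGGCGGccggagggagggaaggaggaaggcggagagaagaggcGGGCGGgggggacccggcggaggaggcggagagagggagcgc
Kdm4a: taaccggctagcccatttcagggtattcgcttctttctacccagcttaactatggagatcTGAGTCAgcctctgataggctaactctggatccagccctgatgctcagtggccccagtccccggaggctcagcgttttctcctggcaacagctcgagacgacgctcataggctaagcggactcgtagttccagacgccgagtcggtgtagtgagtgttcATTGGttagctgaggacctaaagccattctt

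These sequences differ in their boxes. *Kmt2c* held 12 SP1 boxes, some of them overlapping, and *Setd2* held 7, in 3 pairs of overlapping boxes and a single one. *Dnmt3a* held 5 SP1 boxes, *Hdac4* held 4 with 2 NF-Y boxes, and *Smarca4* held 3. *Suz12* held 3 SP1 boxes with 1 NF-Y and 1 E2F box. *Kdm4a* was the exception among the 7, with no SP1 box but 1 NF-Y and 1 AP-1 box.

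Over the RefSeq window of 300 bases (250 before and 50 after the start), the members were rich in CpG. Median GC content was 66.2% in the 48 members and 57.3% in 16511 protein-coding genes with a sequence. The ratio of observed to expected CpG had a median of 0.869 in members (quartiles 0.74 and 0.968) and 0.613 over all (0.239 and 0.843). *Hdac9* was the lowest member at 0.205 and *Tet2* the highest at 1.17. The SP1 box was present in 33 of 48 members (68.8%) against 49% of all promoters, and the TATA box TATAAA in 0 of 48 against 12.6%. The shares of the remaining boxes follow, also without a test. NF-Y was found in 15 members (31.2%, all 38.6%) and the ETS box CCGGAAG in 5 (10.4%, all 12.6%). AP-1 was found in 4 (8.33%, all 6.99%), E2F in 3 (6.25%, all 6.34%), and the cAMP response element TGACGTCA in 1 (2.08%, all 2.51%). The NRF1 box GCGCATGCG was found in *Dnmt1*, *Sirt6* and *Sirt7* (6.25%, all 2.53%) and the YY1 box AAGATGGCG in *Dot1l* and *Suv39h2* (4.17%, all 2.07%). A match of letters does not show that the factor is bound.

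The height of a peak is given as its pileup, the number of fragments over the summit scaled to the depth of the input. In this unit 1 fragment counted 0.447 in NG, 0.26 under HG+NT and 0.194 under HG+miR-93, as the HG+NT list was 1.72 times and the HG+miR-93 list 2.3 times as deep as NG. The lists held 1036304, 846027 and 900109 peaks, and any listed peak was accepted by the caller up to a p of 0.9. Intervals in brackets are 95% exact Poisson intervals and cover counting error only. They do not cover the choice of the highest peak at each gene. The median over all promoters was lower in the deeper lists, and the part of depth in the ratios below was not tested. Among podocyte markers, *Actn4* stood at percentiles 86.3, 93.1 and 91.7 of all promoters in the 3 lists in the same order. *Nphs1*, which encodes nephrin of the slit diaphragm and marks the differentiated podocyte, lay at percentiles of only 31.2, 40.2 and 44.5. Median pileups of the tubular, endothelial, mesangial and leukocyte markers ranged from 3.57 to 5.45, and those of *Alb*, *Ins2*, *Myh6* and *Gfap*, genes of other tissues, from 3.57 to 3.79.

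By their medians, member promoters were higher than most promoters in every list. The highest peak over all starts of a gene was taken, so a gene with more starts had more windows to draw from. Members had from 1 start, as at *Hdac1*, to 25 at *Smarca2*, and 54361 starts were annotated over the 21853 genes. The part of this in the members' height was not tested. Their median pileup was 8.93 in NG (quartiles 7.59 and 12.1), 7.01 in HG+NT (5.71 and 10.6) and 7.19 in HG+miR-93 (5.83 and 9.13). The medians over all promoters were 5.81, 4.93 and 4.86 in the same order. The pileup is not divided by the input's local mean, the background of input fragments around the summit. This local mean had a median of 4 at the members and 2.6 over all promoters in every list. The part of the input in the members' height was not tested. As percentiles within each list, the members' medians were 74.8, 73.3 and 80.3. Behind these values stood 9 to 39 fragments per member summit in NG, 13 to 77 under HG+NT and 19 to 64 under HG+miR-93.

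The members' height was also set beside that of other promoters with as many CpGs. In the quintiles of CpG ratio with 10 or more members, the member median lay above that of all promoters in every list. The part of CpG content in the members' height was not tested. The RefSeq start used lay far from the middle summit at some members, such as *Tet3* (15181 nt) and *Hdac5* (11219 nt). In the quintile of promoters with the highest CpG ratio, which held 20 of the 48 members, the median pileup of members and of all 3302 promoters was 9.16 and 8.93 in NG. It was 8.05 and 7.27 in HG+NT, and 6.8 and 6.61 in HG+miR-93. In the next quintile, with 17 members, the medians were 8.93 and 8.49 in NG, 7.01 and 6.75 in HG+NT, and 7.19 and 6.22 in HG+miR-93. In the quintile below, with 10 members, they were 8.49 and 6.70 in NG, 5.97 and 5.58 in HG+NT, and 7.09 and 5.44 in HG+miR-93. The lowest quintile, where all promoters had medians of 3.57, 3.12 and 3.11, held no member.

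**Figure D1:**
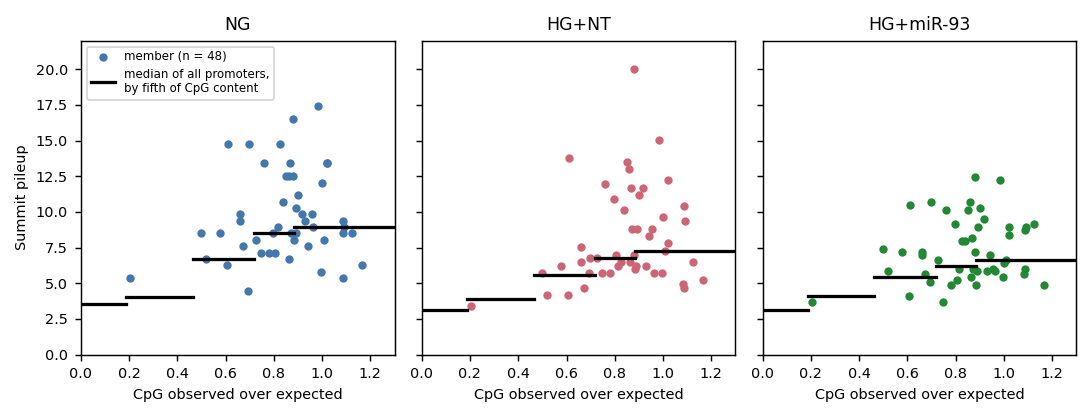
Summit pileup (scaled fragments) against the ratio of observed to expected CpG for the 48 members with a RefSeq sequence, 1 panel per list. Points are members, and black lines give the median of all promoters in each quintile of CpG content, which climbs from 3.57 to 8.93 in NG. Most members lie to the right, where all promoters are high.

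Most of the members' peaks sat on the promoter itself. Distances are to the nearest TSS of the gene, which can be another start in another list. The summit lay within 500 nt of a TSS at 50 of 57 members in NG (65.5% of all promoters), at 51 in HG+NT (62.8%) and at 42 in HG+miR-93 (62.7%). In NG, 28 of the summits lay outside the gene body, 15 in an intron, 12 in an untranslated exon and 2 in a coding exon. In HG+NT the same counts were 26, 12, 17 and 2, and in HG+miR-93 they were 25, 15, 11 and 6. The peaks that held these summits were broad, with median widths of 3134 bp in NG, 3387 bp under HG+NT and 3812 bp under HG+miR-93.

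At 15 of 57 members (16.3% of all promoters) the summits of the 3 lists fell within 150 nt of each other. The closest were those of *Hdac11*, the class IV deacetylase, with summits 35, 30 and 30 nt upstream of its TSS in the NG, HG+NT and HG+miR-93 lists. *Smarca4* followed with summits 78, 80 and 69 nt upstream, all inside the sequence shown. *Suz12* had them 84, 27 and 21 nt upstream, near its SP1 boxes, which start 91, 47 and 34 bases before the RefSeq start. At *Kmt2c* the summits lay 610, 534 and 672 nt upstream, close to each other but beyond the sequence shown.

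Other members changed position between lists. The highest *Phf1* peak, of a PRC2-associated Tudor protein, had its summit 6131 nt downstream of a TSS in NG and 6119 nt in HG+miR-93, within 22 nt and 10 nt of the start of *Cuta*. In HG+NT the *Phf1* summit lay 3 nt downstream of its own TSS. The HG+NT peak of *Kmt2d*, an enhancer H3 lysine 4 methyltransferase, was 12735 bp wide, with its summit 59 nt upstream of *Rhebl1*. The HG+miR-93 peak of *Dot1l*, the H3 lysine 79 methyltransferase, had its summit 21 nt upstream of *Plekhj1*. *Kat2a*, the acetyltransferase GCN5, had its HG+NT summit 20 nt upstream of *Hspb9*. The summit lay within 500 nt of another gene's TSS at 5 members in NG, 6 under HG+NT and 7 under HG+miR-93. *Hdac3*, *Sirt2*, *Sirt3* and *Kdm5a* were among these in every list, so their peaks cannot be assigned to 1 gene.

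**Figure D2:**
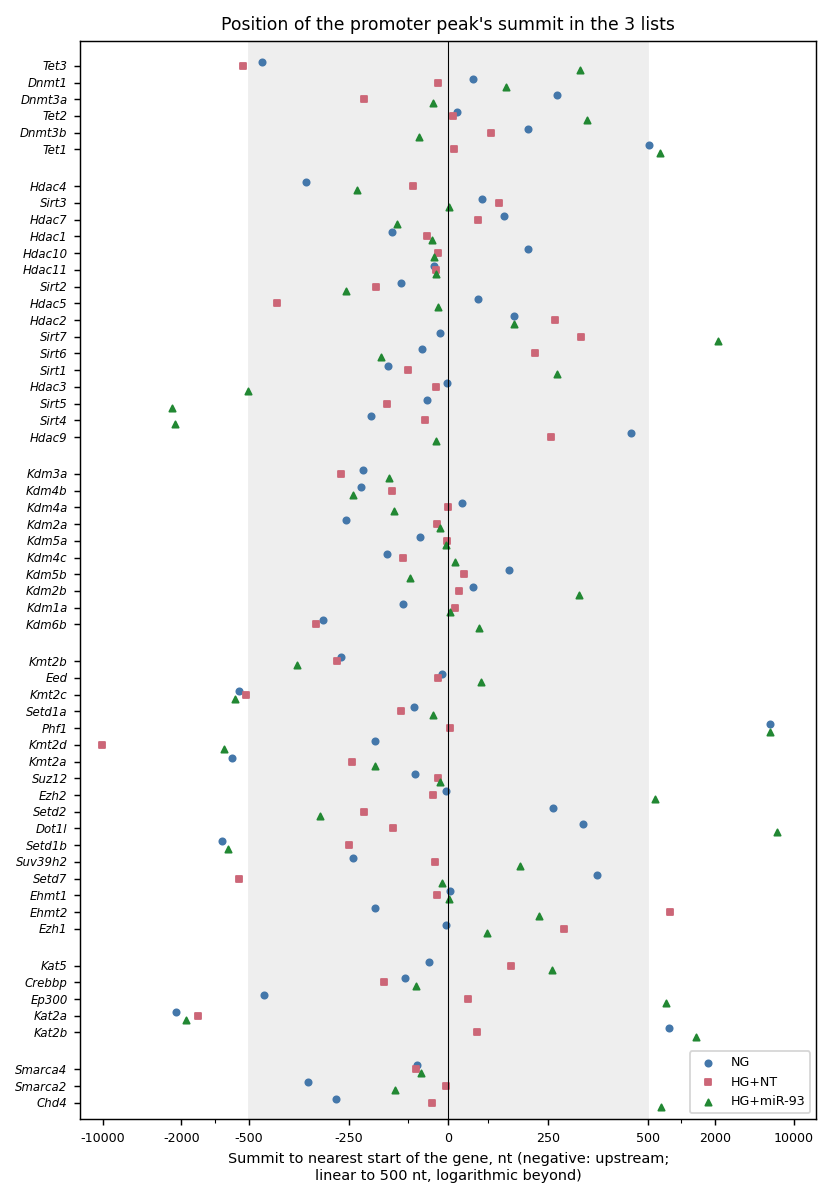
Distance of the promoter peak's summit from the nearest TSS of each member, in nt (negative values are upstream, linear to 500 nt and logarithmic beyond), for NG (circles), HG+NT (squares) and HG+miR-93 (triangles). The grey band marks 500 nt on either side, which holds 50, 51 and 42 of the 57 summits; *Phf1*, *Kmt2d* and *Dot1l* have summits far outside it in some lists.

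Among the genes of DNA methylation, pileups were modest. *Tet3*, a 5-methylcytosine oxidase (chr6:83362373-83459084), was the highest of the 6 on average, with pileups of 8.49 in NG, 6.23 under HG+NT and 7.19 under HG+miR-93. *Tet1*, another oxidase of the family (chr10:62804570-62908996), was the lowest, at 6.25, 4.15 and 4.08. *Tet2*, which lacks the CXXC domain of its relatives, had 6.25, 5.19 and 4.86, near the median of all promoters in each list. *Dnmt1*, the maintenance methyltransferase (chr9:20907209-20959888), had 8.49 [5.11 to 13.3] in NG, 5.71 [3.58 to 8.65] under HG+NT and 7.38 [5.23 to 10.1] under HG+miR-93. *Dnmt3a* had 8.93 [5.46 to 13.8], 5.71 [3.58 to 8.65] and 5.83 [3.93 to 8.32]. The intervals of the 3 lists overlapped at both methyltransferases. *Dnmt3b* was the only one of the 6 with its lowest value in NG, at 4.47, against 5.71 and 5.05.

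Among the 9 zinc-dependent deacetylases, *Hdac4* (chr1:91928779-92195699) stood apart in height. Its pileups were 17.4 [12.4 to 23.8] in NG, 15.1 [11.4 to 19.5] under HG+NT and 12.2 [9.41 to 15.7] under HG+miR-93, percentiles 99.5, 97.6 and 97.8 of all promoters. The input's local mean at these summits was 6, 7 and 9. The authors' fold over the input was 2.63, 2.01 and 1.32, in HG+miR-93 the lowest of the 9. Its HG+NT and HG+miR-93 summits lay 89 and 229 nt upstream, inside the sequence shown. *Hdac1*, the catalytic subunit of several corepressor complexes (chr4:129516104-129542713), had 9.83, 7.27 and 7.77. *Hdac9*, a class IIa enzyme (chr12:34047580-34917095), was the lowest deacetylase, with 5.36, 3.38 and 3.69. Its gene spans several distant starts, and the NG and HG+NT summits lay 89988 nt apart. *Hdac7* and *Hdac10*, both on chromosome 15, were the zinc-dependent members whose HG+NT value was above that of NG, at 9.35 against 8.93 and 8.31 against 6.70.

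The 7 sirtuins, NAD-dependent deacylases, lay lower in HG+NT than in NG with 1 exception. *Sirt3*, the main mitochondrial deacetylase (chr7:140863666-140882309), had 14.7 [10.1 to 20.7] in NG, 6.49 [4.2 to 9.58] under HG+NT and 7.97 [5.72 to 10.8] under HG+miR-93. The NG interval lay wholly above that of HG+NT, but the summits lay 245, 204 and 168 nt from the nearest start of the neighbour *Psmd13*, which was not the same start in all lists. *Sirt1*, the nuclear family member studied most in metabolism (chr10:63319005-63381704), had 8.49 [5.11 to 13.3], 4.67 [2.77 to 7.39] and 6.02 [4.09 to 8.55]. Its HG+NT summit lay at another start of the gene, 42618 nt from that of NG, so the peaks compared are different ones. *Sirt5*, a mitochondrial desuccinylase, had 6.7, 4.15 and 5.83. *Sirt4* had 7.15, 5.71 and 3.69, with the HG+miR-93 summit 2274 nt upstream. The exception was *Sirt2*, at 8.49, 8.83 and 6.02.

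The 10 demethylases included the highest and the lowest of all members by mean pileup. *Kdm3a*, a demethylase of H3 lysine 9 that responds to hypoxia (chr6:71588972-71632990), had 16.5 [11.6 to 22.8] in NG, 20 [15.8 to 25] under HG+NT and 12.4 [9.58 to 15.9] under HG+miR-93. These were percentiles 99.1, 99.4 and 98.0 of all promoters. Its summits lay within 119 nt of each other in HG+NT and HG+miR-93, 268 and 149 nt upstream of the TSS. *Kdm4a*, *Kdm4b* and *Kdm4c* had medians of 12.1, 13.8 and 10.5 over the 3 genes, with *Kdm4b* at 16.1 in HG+NT. *Kdm6b*, which removes H3 lysine 27 methylation (chr11:69398508-69413675), was the lowest demethylase at 4.02 [1.84 to 7.63], 3.9 [2.18 to 6.42] and 4.08 [2.53 to 6.24], below the median of all promoters in each list.

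The authors' −log10 q, their significance after correction, was above 0 at few promoters of any kind. In NG it was above 0 at 3 of 57 members (1.83% of all promoters): *Kdm3a* at 0.79, *Kdm2a* at 1.25 and *Ezh2* at 1.02. In HG+NT it was above 0 at *Kdm3a* alone (2.2% of all promoters), at 2.46, and in HG+miR-93 at 0 of 57 members (0.11%). *Kdm3a* in HG+NT was thus the single member peak with a −log10 q of at least 2.

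The 17 methyltransferase genes, including PRC2 subunits, had the second highest class median in NG among classes with 10 or more genes. *Kmt2b*, an H3 lysine 4 methyltransferase of the MLL family (chr7:30568858-30588726), was the highest on average, with 13 [8.67 to 18.6] in NG, 14.0 [10.5 to 18.3] under HG+NT and 10.5 [7.88 to 13.7] under HG+miR-93. *Ezh1*, the PRC2 catalytic subunit of resting cells (chr11:101191115-101226463), was the lowest at 8.04, 5.97 and 4.86. *Ezh2*, the PRC2 catalytic subunit of dividing cells (chr6:47530139-47595341), had 12.1 [7.95 to 17.5], 9.61 [6.77 to 13.2] and 6.41 [4.41 to 9.01]. Its value was lower in each successive list of this order, and its summits lay at −318, −38 and 583 nt relative to 1 RefSeq start, so that they differ in position as well. *Setd2* (chr9:110532597-110618633) had 12.5 [8.31 to 18.1], 7.01 [4.62 to 10.2] and 7.19 [5.06 to 9.91]. *Setd1b*, an H3 lysine 4 methyltransferase of the COMPASS complex, had 9.83, 5.45 and 7.77. *Kmt2d* (chr15:98831669-98871204) had 9.83, 11.7 and 9.52, of which the HG+NT value belongs to the summit at *Rhebl1*. *Phf1* (chr17:26933052-26937908) had 14.7 [10.1 to 20.7], 6.75 [4.41 to 9.89] and 10.7 [8.05 to 13.9], of which the NG and HG+miR-93 values belong to summits at *Cuta*.

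Of the 5 acetyltransferases, *Kat5* (TIP60, chr19:5603014-5610237) was the highest at 12.5, 13 and 10.7 in the NG, HG+NT and HG+miR-93 lists. *Crebbp*, the coactivator CBP (chr16:4081328-4213997), had 13.4 [9.04 to 19.1], 7.79 [5.26 to 11.1] and 8.36 [6.05 to 11.3], with summits 109, 161 and 82 nt upstream. Its close paralogue *Ep300* (p300, chr15:81585351-81652077) had 8.49 [5.11 to 13.3], 10.9 [7.86 to 14.7] and 9.13 [6.71 to 12.1]. The paralogues thus had opposite orders in NG and HG+NT, with overlapping intervals at each. *Kat2b*, the acetyltransferase PCAF (chr17:53566861-53672720), was the lowest at 7.59, 4.67 and 5.64, and its HG+NT summit lay 16450 nt from that of NG.

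All 3 remodeller genes lay at or above percentile 67.5 of all promoters in each list. *Smarca4* (chr9:21616169-21704230) had 12.5 [8.31 to 18.1], 13.5 [10.1 to 17.7] and 10.1 [7.55 to 13.3]. *Smarca2*, the alternative BAF ATPase, had 11.2 in both NG and HG+NT and 10.3 in HG+miR-93. *Chd4*, the ATPase of the NuRD complex (chr6:125095981-125130591), was the lowest at 9.83, 8.83 and 6.02.

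**Figure D3:**
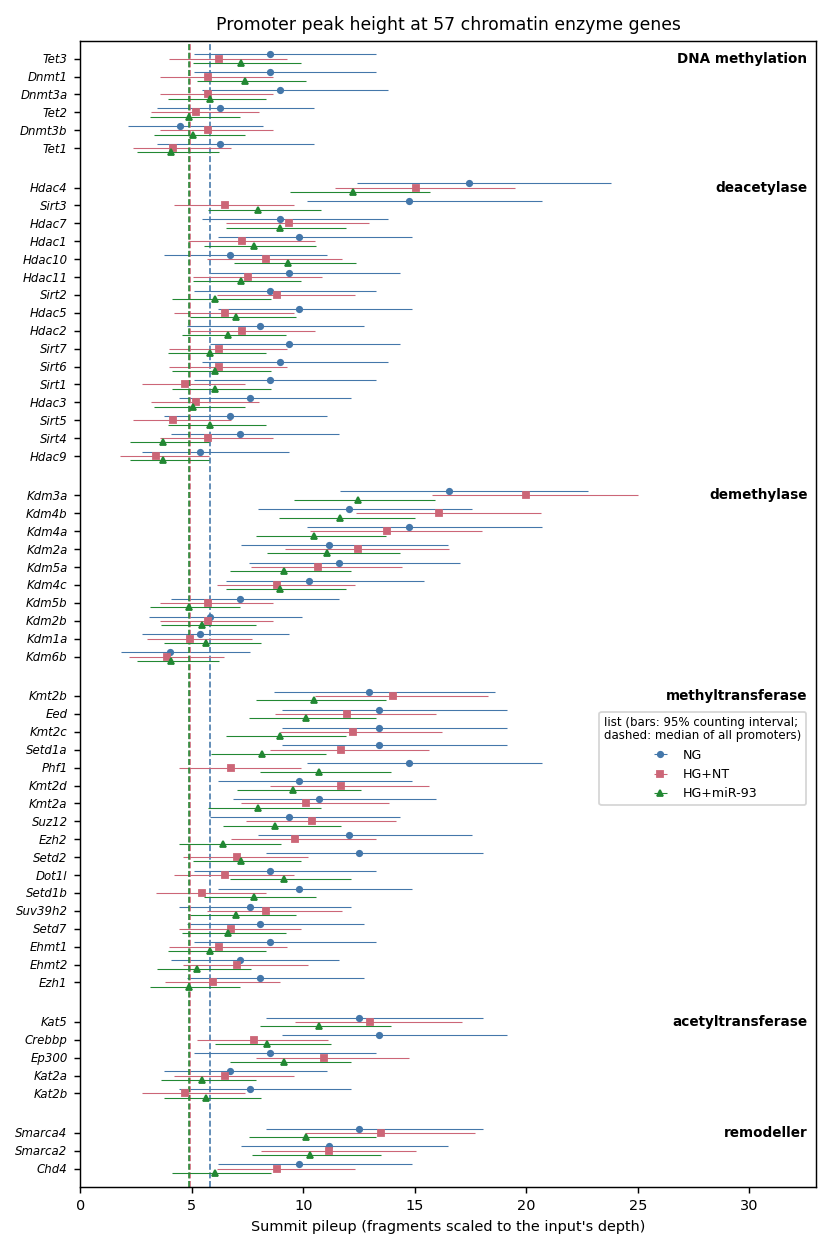
Summit pileup (scaled fragments) of the promoter peak at each of the 57 members, by enzyme class and ordered by mean, in NG (circles), HG+NT (squares) and HG+miR-93 (triangles). Bars are 95% counting intervals and dashed lines the medians of all promoters (5.81, 4.93 and 4.86). *Kdm3a* reaches 20 in HG+NT, and the intervals of the lists overlap at most members.

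HG+NT was compared with NG as the ratio of pileups, and 1.5-fold was taken as a notable ratio. The labels give a transfected mimic for the high-glucose cells only, so glucose and transfection cannot be told apart in ratios to NG. No member was at least 1.5-fold higher in HG+NT, whereas 5.3% of all promoters were. At least 1.5-fold lower were 13 of 57 members, 22.8%, against 16.9% of all promoters, so that the members' share was near the background. The median log2 ratio was −0.21 over the members and −0.16 over all promoters, and 42 members had a negative value (73.7%, all promoters 64.4%). The interval of the ratio lay below 1 at 4 members, *Crebbp*, *Phf1*, *Setd2* and *Sirt3* (7.02%, all promoters 3.13%), and above 1 at none (0.82% of all promoters).

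The 13 lower members came from 4 of the 6 classes. Of the deacetylases 6 of 16 were at least 1.5-fold lower, 4 of them sirtuins, with ratios of 0.44 at *Sirt3* [0.251 to 0.764], 0.551 at *Sirt1* [0.273 to 1.11], 0.62 at *Sirt5* [0.287 to 1.35] and 0.63 at *Hdac9* [0.265 to 1.51]. *Sirt7* and *Hdac5* had log2 ratios of −0.59 and −0.60. The genes of DNA methylation contributed 2 of 6, *Dnmt3a* with a ratio of 0.64 [0.333 to 1.24] and *Tet1* with 0.664 [0.304 to 1.47]. The methyltransferase class contributed 3 of 17, *Phf1* with 0.458 [0.263 to 0.79], *Setd1b* with 0.555 [0.29 to 1.06] and *Setd2* with 0.561 [0.318 to 0.987]. The acetyltransferases contributed 2 of 5, *Crebbp* with 0.581 [0.339 to 0.998] and *Kat2b* with 0.616 [0.299 to 1.27]. None of the 10 demethylases and 3 remodellers were called, and their median log2 ratios were −0.07 and 0.00. The class medians were −0.51 for DNA methylation, −0.48 for deacetylases, −0.20 for methyltransferases and −0.05 for acetyltransferases, with no test of the difference between classes. Over all promoters, the median was −0.27, −0.31, −0.32 and −0.26 in deciles 6 to 9 of mean pileup and 0.02 in the highest decile. The part of height in the class medians was not tested.

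For 8 of these 13 the ratio set different places against each other. The summits of both lists lay within 500 nt of each other at 43 of 57 members (57.5% of all promoters), and among these 43 only *Crebbp*, *Setd2*, *Sirt3*, *Sirt5* and *Sirt7* were at least 1.5-fold lower. The share of all promoters that were lower under the same condition was 17.7%. The summits of *Dnmt3a*, *Hdac5*, *Hdac9*, *Kat2b*, *Phf1*, *Setd1b*, *Sirt1* and *Tet1* lay farther apart. This restriction was added once the values were known. With the authors' fold over the input in place of the pileup, 7 members were higher (7.32% of all promoters) and 4 lower (16.5%). Of the 13 lower members other than *Hdac5* and *Sirt7*, which were not recomputed singly, the log2 ratio then turned positive at *Sirt1* (0.53), *Setd1b* (0.25), *Sirt3* (0.11) and *Kat2b* (0.02). With the highest-fold peak it turned positive at *Sirt1* (0.80) and *Setd1b* (0.58), and with the summit required inside the promoter at *Kat2b* (0.07) and *Tet1* (0.05). Relative to promoters of the same decile of mean pileup, 2 members were higher (8.78% of all promoters) and 3 lower (8.48%). Relative to those of the same chromosome, 2 were higher (8.92%) and 5 lower (8.75%).

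**Figure D4:**
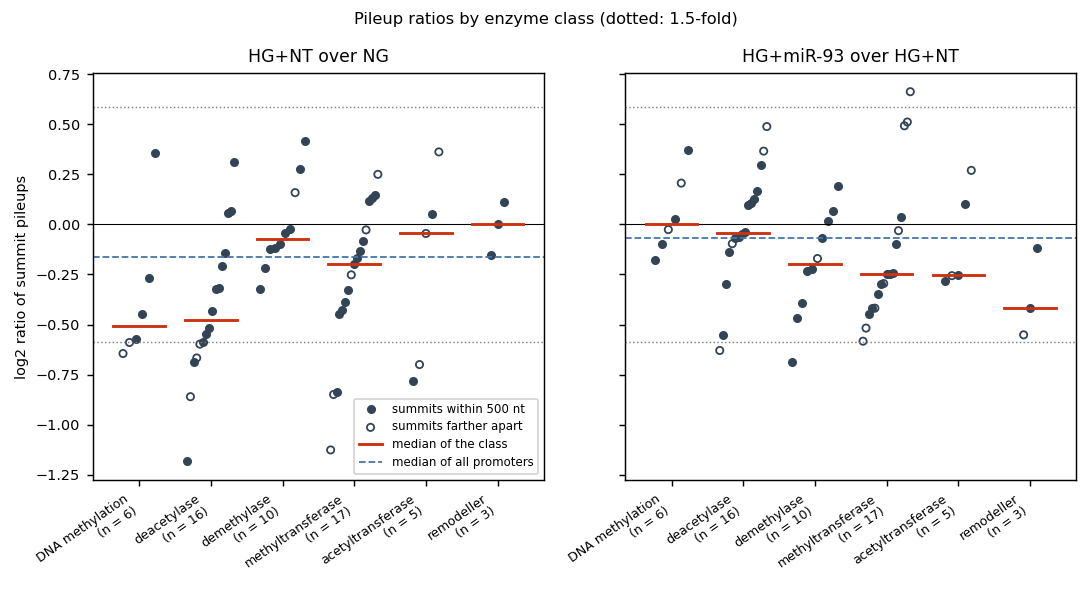
Log2 ratio of summit pileups for each member by enzyme class, HG+NT over NG (left) and HG+miR-93 over HG+NT (right), both of which use the HG+NT list. Filled points have summits within 500 nt of each other in both lists, open points farther apart; red bars are class medians, the dashed line the median of all promoters (−0.16 and −0.07) and dotted lines 1.5-fold. On the left 13 members lie below the lower dotted line, 8 of them open.

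The ratios also differed between chromosomes. All promoters on chromosomes 15 and 19 had a median log2 ratio of 0.14 for HG+NT over NG. Those on chromosome 8, which holds no member, had 0.11. Promoters outside chromosomes 8, 15 and 19 had −0.20, and these include X at 0.07 and Y at −1.59, also without members. The 7 members on chromosomes 15 and 19 had a median of 0.16, and none of them had a negative value. The highest of these 7 were *Ep300* at 0.36, *Hdac10* at 0.31 and *Kmt2d* at 0.25, all on chromosome 15. The *Kmt2d* value uses the HG+NT summit at *Rhebl1*. The 50 members on other chromosomes had a median of −0.29 and included all 13 that were at least 1.5-fold lower. Of these 50, 8 had a positive value. Among them were *Kdm4b* on chromosome 17, the highest of all members at 0.42, and *Dnmt3b* on chromosome 2 at 0.36. The part of this chromosome-wide difference in the contrast between *Crebbp*, on chromosome 16, and *Ep300* was not tested.

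**Figure D5:**
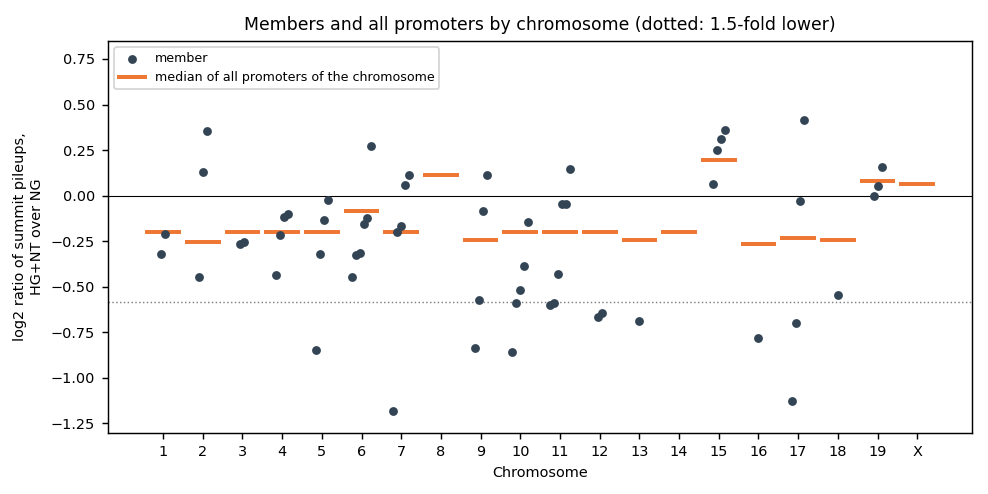
Log2 ratio of summit pileups, HG+NT over NG, for each member (points) by chromosome, with the median of all promoters of that chromosome (orange bars). The members on chromosomes 15 and 19 lie at or above 0, where the bars also lie above 0, and the 13 members under the dotted line of 1.5-fold are all on other chromosomes.

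The miR-93 mimic was compared with the non-targeting mimic in high glucose, HG+miR-93 over HG+NT. This ratio shares the HG+NT list with the previous one, so an error in an HG+NT value moves both ratios, in opposite directions. At least 1.5-fold higher was 1 of 57 members (2.16% of all promoters), *Phf1*, with a ratio of 1.58 [0.976 to 2.63] between summits 6524 nt apart. At least 1.5-fold lower were 2 (5.66% of all promoters), *Kdm3a* with 0.622 [0.439 to 0.878] and *Sirt4* with 0.646 [0.331 to 1.25], the latter between summits 2215 nt apart. *Kdm3a* was the only member whose interval lay below 1 (1.99% of all promoters), and none lay above 1 (0.243%). The median log2 ratio was −0.10 over the members and −0.07 over all promoters. Relative to promoters of the same decile of mean pileup, the median was 0.03, with 3 members higher (2.98% of all promoters) and 1 lower (3.4%). The count depended on the peak chosen. With the highest-fold peak of each promoter, the median was −0.23, with 2 members higher (4.35% of all promoters) and 10 lower (9.02%). With the authors' fold, 1 was higher (6.22%) and 5 were lower (9.74%), and the ratio at *Sirt4* turned positive, at 0.30 on the log2 scale.

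By class, the median log2 ratio of HG+miR-93 over HG+NT was 0.00 for DNA methylation and −0.04 for deacetylases. It was −0.20 for demethylases, −0.25 for methyltransferases and acetyltransferases, and −0.42 for remodellers. Over all promoters, those in the highest decile of mean pileup, which held 15 of the 57 members, had a median of −0.31. *Ezh2* had a ratio of 0.667 [0.405 to 1.1], just short of 1.5-fold, and *Kmt2b* and *Smarca4* both had 0.748. *Dnmt1* and *Sirt1* had 1.29 with intervals of 0.745 to 2.29 and 0.699 to 2.45.

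Between HG+miR-93 and NG, 0 members were at least 1.5-fold higher (4.26% of all promoters) and 12 of 57 were lower, 21.1% against 22.1% of all promoters. The interval of the ratio lay below 1 at *Ezh2*, *Setd2* and *Sirt3* (6.1% of all promoters) and above 1 at none (0.325%). The median log2 ratio was −0.38 over the members and −0.24 over all promoters. For the upper 3 deciles of all promoters by mean pileup, which held 39 members, it was −0.39. Relative to promoters of the same decile, 1 member was higher (8.55% of all promoters) and 1 lower (8.11%).

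The 86 other chromatin enzyme and cofactor genes that were listed for comparison had median pileups of 9.38 in NG, 7.79 under HG+NT and 7.29 under HG+miR-93, and all 86 had a promoter peak in each list. For HG+NT over NG, 2 of 86 were at least 1.5-fold higher (5.3% of all promoters) and 10 lower (16.9%), with a median log2 ratio of −0.20. The higher ones were *Hdac6*, a cytoplasmic deacetylase, at 0.87, and *Setd3*, an actin histidine methyltransferase, at 0.64. The lowest ratios were those of *Setdb1*, an H3 lysine 9 methyltransferase, with a log2 ratio of −1.13, and *Wdr5*, a shared subunit of the H3 lysine 4 methyltransferases, at −0.90. For HG+miR-93 over HG+NT, 0 of 86 were higher (2.16% of all promoters) and 9 lower (5.66%), with a median of −0.16. Among the lower ones were the remodeller subunit *Pbrm1* at −0.82 and the arginine methyltransferase *Prmt5* at −0.81.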

How the data were processed

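DNase-Seq covered 2 replicates of each condition and 1 genomic DNA input. The authors used TrimGalore! for trimming, Bowtie for mapping to mm10 and, after removal of duplicates, MACS2 for peak calling with the input as control. The submitters' notes also name CASAVA 1.8.2. The caller's settings for these lists are not given in the sources used here. The deposited lists, 1 per condition and named as joint sets, give each peak's fold (a ratio to the input's local mean) and its −log10 p-value and −log10 q-value, the latter used as a score. MACS2's fold and p are functions of the fragments at the summit and the input's local mean, and both were solved from them here. The fold is taken as the ratio of both values, each increased by 1. A single solution was found for at least 99.8% of the peaks of each list, and for every member. Before use, the solving step recovered fragments simulated with the same formula, which does not test if the formula describes the deposited values.

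The pileup is the fragments times the list's scaling. From each list the peak with the highest pileup overlapping 500 nt either side of a protein-coding TSS (GENCODE vM21, GRCm38, the same build as mm10) by at least 1 bp was taken per gene. Pileups have 95% exact Poisson intervals and ratios 95% exact conditional (Clopper-Pearson) intervals. Their width follows from 9 to 77 fragments per member summit. No test was run, since the lists hold no replicate values. RefSeq promoter sequences (GRCm38.p6) were taken at the start nearest to the middle of the 3 summits. Members, comparison lists and rules were chosen with earlier results of these data known. Named were the highest and lowest member of each class by mean pileup, up to 10 members per direction at least 1.5-fold different between HG+NT and NG or HG+miR-93 and HG+NT, members so different in both in opposite directions, and 12 representatives of the classes. Members mentioned beside these were chosen after their values were seen. The software was scipy 1.17.1, numpy 2.4.6 and pandas 2.3.3 under Python 3.11.15, with figures drawn by matplotlib 3.10.9. A podocyte marker, and the summary over the podocyte markers, are not reported here.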

Additional observations from a re-analysis of the deposited data

How the results depend on the processing

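Values below are, in order, for HG+NT over NG, HG+miR-93 over HG+NT and HG+miR-93 over NG. Promoters of 1000 nt either side, a cover of at least 50% and the largest fragment number kept every median within its interval and every count within 1.5 times. With the highest-fold peak, 5, 2 and 3 members were higher (7.73% and 4.35% of all promoters in the first and the second). In the second comparison 10 were lower (9.02%). HG+NT over NG then turned positive at *Setd1b* (0.58), *Sirt1* (0.80), *Chd4* (0.85) and *Kdm6b* (0.12) and negative at *Kmt2d* (−0.66). With the authors' fold, the first and the third median were −0.095 and −0.23. Higher were 7 members in the first (7.32% of all promoters) and 2 in the third. Lower were 4 in the first (16.5%) and 5 in the second (9.74%). The first ratio turned positive at *Kat2b* (0.023), *Setd1b* (0.25), *Sirt1* (0.53), *Sirt3* (0.11), *Ezh1* (0.23) and *Chd4* (0.17) and negative at *Kmt2d* (−0.057), and the second turned positive at *Sirt4* (0.30). With the summit inside the promoter (47 members), 0 were higher (2.13% of all promoters) and 4 lower (7.42%) in the second. *Kat2b* (0.066) and *Tet1* (0.048) turned positive in the first. At a −log10 p of at least 2 (7 members), 0, 1 and 2 were lower (4.94% and 7.74% of all promoters in the first and the second). In the second the median was −0.28 with 0 higher (0.152%). Centred on the same decile of pileup, the medians were −0.066, 0.033 and −0.042, with 2, 3 and 1 higher and 3, 1 and 1 lower. The shares of all promoters for this setting are given with each comparison above. Centred on the same chromosome, the first and the third median were −0.070 and −0.14, with 2 higher in the first and second and 5, 1 and 3 lower. In the first, 8.92% of all promoters were higher and 8.75% lower. At 2-fold, 2, 0 and 0 were lower (3.79% of all promoters in the first) and 0 higher in the second. With summits within 500 nt, chosen after seeing the data (43, 39 and 39 members), 5, 1 and 4 were lower and 0 higher in the second. Of all promoters under the same condition, 17.7%, 5.86% and 25.6% were lower, and 1.06% were higher in the second. Counts without a share of all promoters here or above only show how the setting moved them, and are not read against the background. Over 27 named members and 213 recomputed ratios in each of the first and the second comparison, the sign changed in 17 and 19, of which 8 and 1 were at members at least 1.5-fold different. The cause of these changes was not tested, beyond the fewer members left by some settings.

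No paired analysis was possible because each list joins the replicates of a condition and holds no value per replicate. Leaving out a replicate was not run for the same reason. With 9 to 77 fragments per summit, the counting interval of the ratio lay below 1 at 4 of the 13 members that were at least 1.5-fold lower in HG+NT than in NG.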
